A study of Mus musculus with 721 samples.

Results

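Expression of 9 transcription factors that mark the tip and the trunk of the embryonic mouse pancreas was followed in single cells from E11.5 to E15.5. The factors were Ptf1a, Rbpjl, Nr5a2, Gata4, Bhlha15, Myc, Onecut1, Sox9 and Foxa2, taken by symbol from the 32806 genes of the deposited table, and all 9 had an entry. The embryos carried a Neurogenin 3-eGFP reporter, and cells sorted as eGFP-positive were deposited 1 per well. No other genotype, treatment or control strain is given in the sources used here, nor which animal a cell came from. E11.5 and E12.5 were sequenced in run 1 alone and E13.5, E14.5 and E15.5 in runs 1 and 2, which gave 8 cell sets of 1 day and 1 run. By the labelled sort, progenitors without eGFP were not meant to be sampled, and as background, eGFP protein can outlast Neurog3 mRNA in a cell. How far the sort held in the early sets was not tested. The eGFP transcript reached 1 FPKM in 5.48% of the kept E11.5 cells, in 0% of those from E12.5 and in 17.6% to 46.2% of the cells of a later set.

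As background, the budding pancreatic epithelium sorts itself into tips and a trunk. Tip cells use the PTF1 complex, in which Ptf1a and Rbpjl bind DNA together, and later become acinar cells that make digestive enzymes. Trunk cells keep Sox9 and Onecut1 (also called Hnf6), and some of them switch on Neurog3, leave the epithelium and pass through a Fev-positive stage to become hormone cells.

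Of 721 deposited cells, 658 had 100000 or more fragments and no fewer than 1500 genes reaching 1 FPKM, and these were kept, with 68 to 94 cells a set and a median of 587177 fragments a cell. FPKM is a fragment number scaled to transcript length and to the depth of the cell, and a cell was counted as positive for a gene at 10 FPKM or more. Neurog3-positive cells were 13.7% of the E11.5 cells, 8.89% of the E12.5 cells and from 50% to 76.9% in each of the 6 others, so the 163 cells of the first 2 days and the 495 later cells were different mixtures. The sets differed in other ways too. Xist reached 1 FPKM in 95.7% to 100% of the E13.5 and E14.5 cells and in 1.11% to 4.11% of the others, and leukocyte- or endothelium-marked cells (Ptprc, Pecam1 or Cdh5 positive) were 26.03% and 38.9% of the E11.5 and E12.5 cells and 2.56% to 3.66% later. Transcripts above 60% GC were low against those of 40% to 50% GC in E12.5 run 1 (-1.44 log2) and E13.5 run 1 (-1.12) and stood between -0.31 and 0.85 in the other sets. The median GC of the transcripts of the 9 factors ran from 48.5% for Onecut1 to 59.3% for Foxa2.

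Most of the factors were transcripts of the first 2 days. Rbpjl, Myc, Onecut1, Nr5a2, Gata4 and Sox9 were highest at E11.5 or E12.5, Ptf1a was low even there, Foxa2 had its lowest means there, and the early and later means of Bhlha15 overlapped. The first of the tip factors, Ptf1a, is a basic helix-loop-helix protein without which the pancreas does not form its exocrine part. Its mean was 1.66 FPKM at E11.5 but 0.877 at E12.5, and it did not pass 0.156 FPKM in any later set. It was positive in 8 of 163 early cells (4.91%, exact Clopper-Pearson 95% interval 2.14% to 9.44%) and in 1 of 495 later cells (0.202%, 0.00511% to 1.12%). All such intervals cover counting error only.

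Rbpjl, the PTF1 subunit that takes over from Rbpj as acinar cells mature, was far more abundant than its partner. Its mean was 41.8 FPKM at E11.5 and 20.004 at E12.5. Among the later sets, run 1 gave 0.139, 0 and 0.787 FPKM on successive days and run 2 gave 2.01, 1.04 and 0. Each early set was therefore above each later set. Rbpjl was positive in 28 of 73 cells at E11.5, in 22 of 90 at E12.5 and in 5 of all 495 later cells.

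The PTF1 complex binds an E-box (CANNTG) next to a TGGGAA box, so the sequence just upstream of both subunit genes and of Bhlha15, the tip factor whose early and later means overlapped, is shown, from RefSeq on GRCm38.p6, each up to the base before the annotated start. Capitals mark TGGGAA and each CANNTG, searched on both strands, and no 2 matches overlap. The first stretch is chr2:164402944-164403140 (plus strand), 197 bases long, the next chr2:19445413-19445662 (plus strand) and the last chr5:144190036-144190285 (plus strand), each of these 250 bases long.
Rbpjl: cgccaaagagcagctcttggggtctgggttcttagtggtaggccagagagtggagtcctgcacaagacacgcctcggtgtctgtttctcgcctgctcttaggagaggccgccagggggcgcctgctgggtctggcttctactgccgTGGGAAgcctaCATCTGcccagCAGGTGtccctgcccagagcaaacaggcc
Ptf1a: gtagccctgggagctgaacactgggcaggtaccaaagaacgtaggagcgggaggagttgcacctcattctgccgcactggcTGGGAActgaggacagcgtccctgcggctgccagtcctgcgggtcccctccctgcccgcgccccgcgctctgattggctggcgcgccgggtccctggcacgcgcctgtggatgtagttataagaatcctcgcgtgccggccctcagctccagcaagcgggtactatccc
Bhlha15: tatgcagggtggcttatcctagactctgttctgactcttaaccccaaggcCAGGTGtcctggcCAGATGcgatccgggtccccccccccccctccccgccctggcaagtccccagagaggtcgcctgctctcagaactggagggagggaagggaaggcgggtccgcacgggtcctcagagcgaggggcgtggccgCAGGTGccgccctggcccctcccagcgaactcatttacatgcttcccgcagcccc

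The Rbpjl stretch holds 1 TGGGAA box followed by 2 E-boxes, with gaps of 5 and 16 bases. The Ptf1a stretch holds 1 TGGGAA and 0 E-boxes, and the Bhlha15 stretch holds 3 E-boxes and 0 TGGGAA. Among 32851 mouse promoters in the same table, 66.2% held a CANNTG within the 250 bases, 21.6% a TGGGAA and 4.29% the pair no more than 20 bases apart. These are matches of letters, and binding was not measured. The table held entries for 6 of the 9 factors, and those of Nr5a2, Foxa2 and Onecut1 held no TGGGAA.

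Nr5a2, a nuclear receptor that works beside PTF1 on acinar genes, had means of 6.82 and 7.80 FPKM on those first 2 days and of 0.208 to 1.51 in the later sets. It was positive in 37 early cells and in 9 later ones. Gata4, a zinc-finger factor of the early bud that stays in the tips, was lower, at 2.92 and 3.63 FPKM early and 0.0153 to 1.12 later, with 13 and 6 positive cells. For both genes the early sets stood above all later ones.

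Bhlha15 (Mist1), which organises the secretory machinery of acinar cells, did not follow the other tip factors. Its mean was 1.75 FPKM on the first day and 0.548 on the next. From E13.5 to E15.5 it was 1.38, 0.988 and 3.71 in run 1 and 1.43, 3.54 and 5.27 in run 2. The E11.5 mean lay inside the range of the later sets. It was positive in 4 of 163 early cells and in 29 of 495 later cells (5.86%, 3.96% to 8.31%).

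Myc, which drives growth and proliferation of pancreatic progenitors, was the most abundant of the 9 on each of the first 2 days. Its mean was 142 FPKM at E11.5 and 43.5 at E12.5, against 6.78 in E13.5 run 1 and 0.745 to 3.05 in the other later sets. It was positive in 84 of 163 early cells (51.5%) and in 17 of 495 later cells (3.43%).

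Among the trunk factors, Onecut1, which stands upstream of Neurog3 in endocrine differentiation, had means of 10.4 and 9.89 FPKM at E11.5 and E12.5 and never more than 0.752 later, with 35 positive early cells and 9 later ones. Sox9, the factor that maintains progenitors and then marks the duct lineage, had means of 28.4 and 21.7 FPKM early. From E13.5 to E15.5 it was 8.97, 4.05 and 8.77 in run 1 and 5.04, 3.84 and 7.75 in run 2. Both early means stood above the later ones, by less than for Onecut1, and Sox9 was still positive in 88 of 495 later cells (17.8%, 14.51% to 21.4%), against 69 of 163 early cells (42.3%, 34.6% to 50.3%).

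Foxa2, a pioneer factor of the whole foregut endoderm that endocrine cells keep, had its lowest whole-set means on the first 2 days. The mean was 8.67 FPKM at E11.5 and 3.06 at E12.5. From E13.5 to E15.5 it was 9.81, 13.04 and 18.9 in run 1 and 32.1, 11.46 and 30.5 in run 2. The lowest of the Foxa2 means came from E12.5 run 1 and the next 2 lowest from E11.5 run 1 and E13.5 run 1. E12.5 run 1 and E13.5 run 1 were also the sets low in GC-rich transcripts, and the part of that in the Foxa2 values was not tested. Foxa2 was positive in 18 early cells (11.04%) and in 188 later cells (37.98%). In epithelial cells alone (Epcam or Cdh1 positive, and not leukocyte- or endothelium-marked) the early means were 13.3 and 5.28 FPKM and the later ones 9.04 to 31.5, so the E11.5 mean lay inside the later range.

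**Figure D1:**
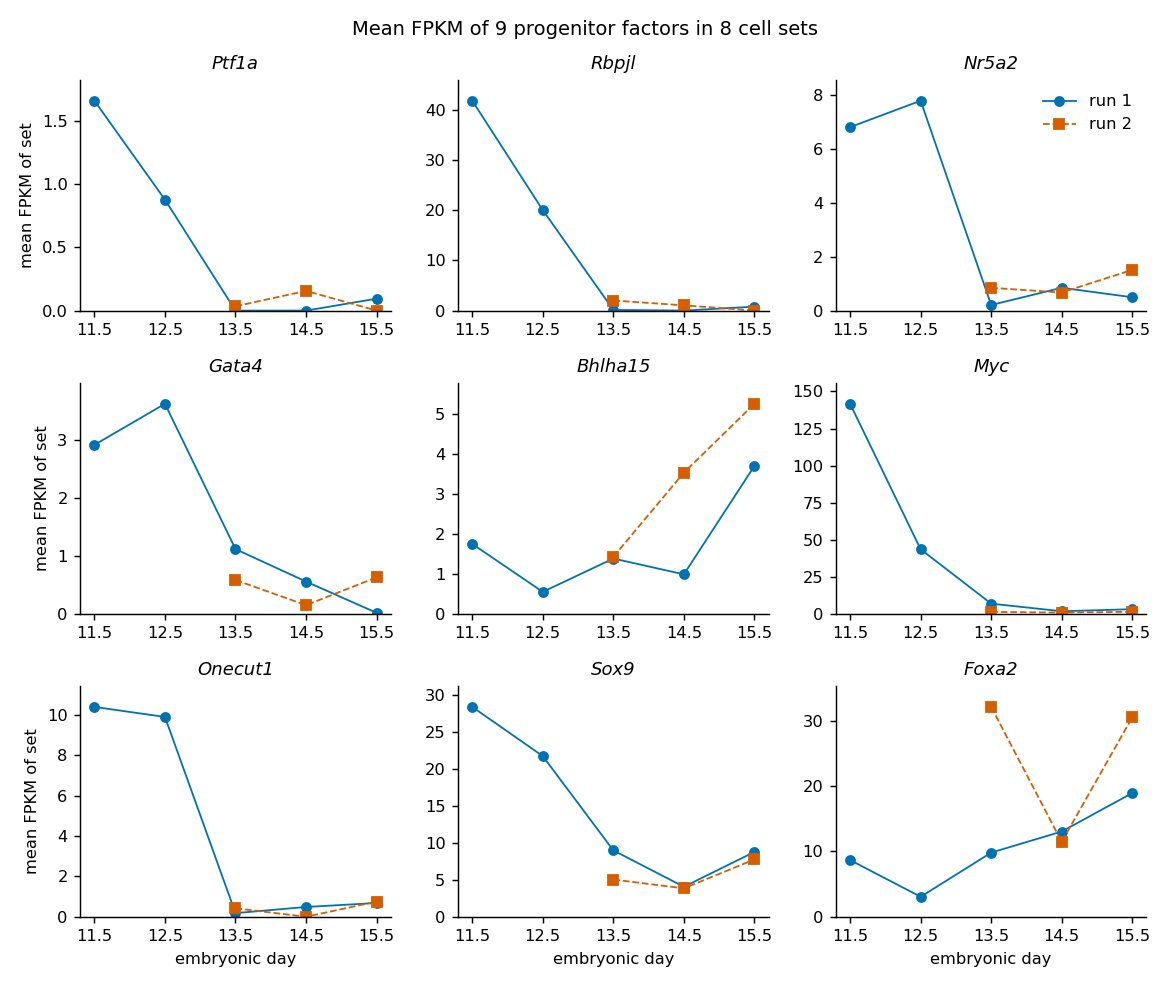
Mean FPKM (linear axis, from 0) of each of the 9 factors in the 8 cell sets against embryonic day. Circles with solid lines are run 1 and squares with dashed lines run 2, each point is the mean over the kept cells of 1 set, and no error bar is drawn because a set is 1 unit. Rbpjl, Nr5a2, Onecut1 and Myc were high at E11.5 and E12.5 and low in all 6 later sets, while Foxa2 differed between the runs at E13.5 (9.81 and 32.1 FPKM).

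Whether these factors changed along embryonic day was tested with limma on log2(mean FPKM of a set + 1), with day and run as terms and Benjamini-Hochberg adjustment over 16154 genes. No gene passed an adjusted p of 0.05, and 1914 genes (11.8%) had an unadjusted p below 0.05. Ptf1a did not reach the filter of a mean of 1 FPKM, so 8 of the 9 factors were tested, and Rbpjl, Nr5a2, Gata4 and Onecut1 reached it only through the early sets in which they were high. The Rbpjl slope was -1.26 ± 0.31 log2 per day (SE, limma adjusted p = 0.261, 8 sets) and the Myc slope -1.19 ± 0.28 (limma adjusted p = 0.261). The slopes were -0.67 for Onecut1, -0.55 for Nr5a2, -0.45 for Gata4 and -0.40 for Sox9, and 0.32 for Foxa2 and 0.27 for Bhlha15, with limma adjusted p from 0.367 to 0.613. In epithelial cells alone the Foxa2 slope was 0.15 ± 0.19 (limma adjusted p = 0.848). Since the labels name no animals, a p-value here reflects spread among cell sets alone, and that spread may be technical.

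The levels did not change evenly along the days, and a step between E12.5 and E13.5 was fitted in place of the slope after the values had been seen. Its sizes are a description with no test, because the step was placed where the values were seen to change. From E13.5 the step was -4.56 ± 0.59 log2 (SE) for Rbpjl, -4.19 ± 0.61 for Myc, -2.96 ± 0.44 for Onecut1, -2.47 ± 0.42 for Nr5a2, -1.71 for Sox9 and -1.51 for Gata4, and 1.21 for Foxa2. With epithelial cells alone it was -5.20 for Rbpjl, -3.98 for Myc, -3.54 for Onecut1, -3.00 for Nr5a2, -2.41 for Gata4, -2.39 for Sox9 and 0.49 for Foxa2. The step coincides with the rise in Neurog3-positive cells, and embryonic stage cannot be told apart from that rise. Xist also changed between E12.5 and E13.5 and changed back by E15.5, where it reached 1 FPKM in 1.14% (run 1) and 3.66% (run 2) of cells. Ddx3y went the other way. It was detected in 67.1% of the E11.5 cells, 73.3% of the E12.5 cells and 0% of the E13.5 and E14.5 cells. At E15.5 it was detected in 61.4% (run 1) and 74.4% (run 2). The part of Xist, Ddx3y or embryo sex in the step was not tested.

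Within Neurog3-only cells (Neurog3 positive, Fev below 10 FPKM) the early Rbpjl means were still the highest. In the 7 such cells at E11.5 its mean was 106 FPKM and in the 7 at E12.5 it was 56.04, against set means of 0 to 2.98 in the 6 later sets. No gene of 15269 passed along day within Neurog3-only cells (927 genes, 6.07%, at an unadjusted p below 0.05), and 6 of the 9 factors were tested. The Rbpjl slope was -1.51 ± 0.42 log2 per day (limma adjusted p = 0.741), while Sox9 (-0.43), Foxa2 (0.33), Onecut1 (0.09), Nr5a2 (0.07) and Myc (-0.06) had smaller slopes.

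The 163 early cells were 99 epithelial cells, 54 leukocyte- or endothelium-marked cells and 10 others, and 8 of the 9 factors had few or no positive cells outside the epithelium, whereas Myc had many. In the epithelial cells 48 were positive for Rbpjl, 34 for Nr5a2, 34 for Onecut1, 67 for Sox9, 18 for Foxa2, 13 for Gata4 and 8 for Ptf1a. In the marked cells 2 were positive for Rbpjl, 2 for Nr5a2, 2 for Sox9, 1 for Onecut1 and 0 for Ptf1a, Gata4, Bhlha15 and Foxa2. A count of 0 of 54 allows a share of up to 6.60% by the exact interval. Bhlha15 was rare in the epithelium too, with 3 of the 99 epithelial and 1 of the 10 other cells positive. Myc was positive in 48 epithelial cells (48.5%, 38.3% to 58.7%) and in 31 marked cells (57.4%, 43.2% to 70.8%). At E11.5 its mean was 88.7 FPKM in 47 epithelial cells and 252 in 19 marked cells, and at E12.5 it was 48.7 in 52 and 37.5 in 35. The Myc mean of 142 FPKM for the whole E11.5 set thus includes higher values from cells outside the epithelium. Leukocyte markers summed to a mean of 6309 FPKM in the marked cells and 8.53 in the epithelial cells. Liver markers need naming, since Onecut1, Nr5a2, Gata4 and Foxa2 are also factors of the embryonic liver. Among the 99 early epithelial cells Afp was positive in 54 and Serpina1a in 72, while Alb was positive in 3 and Apoa1 in 4. Cpa1, an acinar enzyme gene, was positive in 72. The part of liver cells in these levels was not tested.

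**Figure D2:**
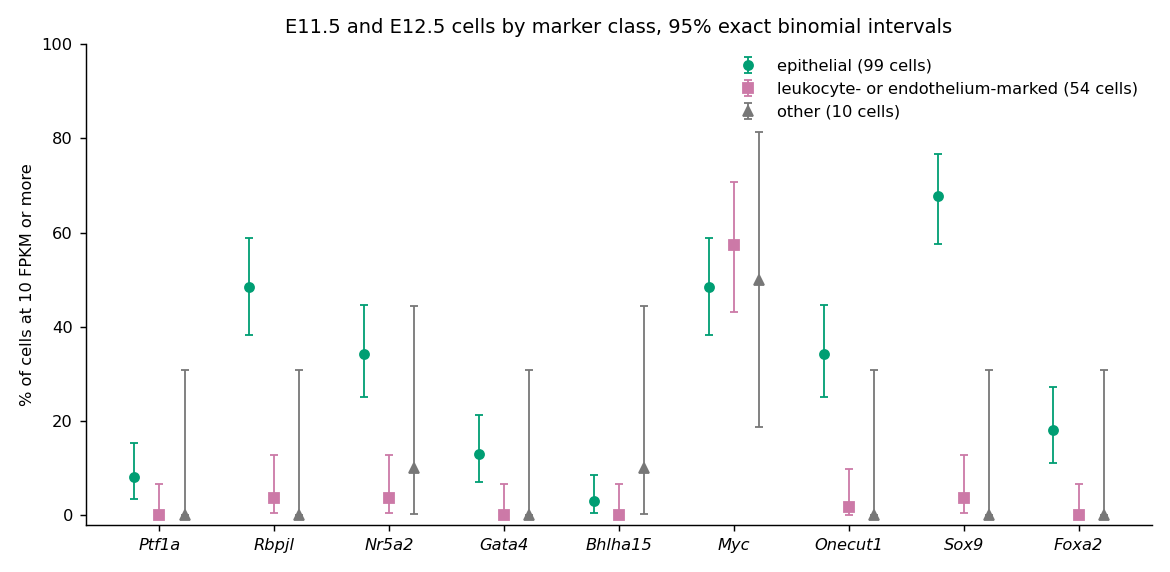
Share of the E11.5 and E12.5 cells at 10 FPKM or more (percent) for each factor in the epithelial, the leukocyte- or endothelium-marked and the other cells, with 95% exact binomial intervals as bars. Sox9 (67 of 99) and Rbpjl (48 of 99) were mostly epithelial, each with 2 of 54 marked cells positive. Myc was positive in 48 of 99 epithelial, 31 of 54 marked and 5 of 10 other cells. The intervals of the 3 classes overlapped for Myc, and also for the rare Ptf1a and Bhlha15.

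Tip and trunk factors were found in the same early cells. At E11.5, 29 of 73 cells were positive for Sox9 and at least 1 of the 5 tip factors (Ptf1a, Rbpjl, Nr5a2, Gata4 and Bhlha15), and at E12.5 this was 24 of 90. In the later sets it was 0 to 5 cells a set. At least 3 of the 9 factors were positive in 41.1% of the E11.5 cells and in 28.9% of the E12.5 cells, with 6 as the highest number in a cell, and in 0% to 4.88% of the cells of a later set.

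Within the 99 early epithelial cells Rbpjl and Myc went together most closely. Of the 48 Rbpjl-positive cells 35 were Myc-positive (72.9%), against 13 of the other 51 (25.5%). This held on both days, with 18 of 26 against 4 of 21 at E11.5 and 17 of 22 against 9 of 30 at E12.5. Pearson's r of log2(FPKM + 1) was 0.61 for Rbpjl and Myc, 0.51 for Onecut1 and Sox9, 0.51 for Nr5a2 and Myc and 0.47 for Nr5a2 and Sox9. These are correlations across cells that come from 2 cell sets and differ in depth, and no p is given. Rbpjl-positive cells had a median of 634325 fragments and the others 537488.

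Rbpjl and Sox9, a tip and a trunk factor, often shared a cell. At E11.5, 22 of 26 Rbpjl-positive cells and 7 of 21 Rbpjl-negative cells were Sox9-positive. At E12.5 the same counts were 17 of 22 and 21 of 30. The gap between the shares was wide on the first day and narrow on the next, and with 1 set a day the difference between days was not tested. Ptf1a was positive in 8 epithelial cells, of which 7 were also Rbpjl-positive. Onecut1 and Sox9, both trunk factors, coincided in 31 of 34 Onecut1-positive cells (91.2%), against 36 of 65 others (55.4%). Gata4 (13 cells) and Foxa2 (18 cells) shared 0 of the 99 cells. Foxa2 was positive in only 18 of the 86 cells without Gata4 (20.9%). With 13 Gata4 cells a count of 0 is too small to be read as exclusion, and it was not tested.

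Of the early epithelial cells 17 were Neurog3-positive. At E11.5 there were 9, and Ptf1a, Gata4 and Bhlha15 were listed at 0 in all of them. Myc did not pass 1.11 FPKM and Nr5a2 did not pass 0.506. In the 38 epithelial cells of that day below 10 FPKM of Neurog3, by contrast, 22 were positive for Myc, 15 for Onecut1 and 14 for Nr5a2, against 0 of 9 for each. Ptf1a, Gata4 and Bhlha15 were positive in only 4, 6 and 2 of those 38 cells, so their 0 of 9 cannot be read as a loss. Among the tip factors only Rbpjl was positive in the 9 cells, in 4 of them against 22 of the 38. Its values in these 4 cells were 315, 274, 124 and 27.8 FPKM, and it was at 0 in the other 5.

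All 4 of these Rbpjl cells were Cpa1-positive and 0 were positive for Isl1 or Fev. The 3 cells positive for Isl1, a factor of endocrine cells after Neurog3, had Rbpjl and Sox9 listed at 0. Sox9 was positive in 3 of the 9 and Foxa2 in 5, and all 3 Sox9 cells were Foxa2-positive. Foxa2 was highest, at 254 FPKM, in a cell with 47.1 FPKM of Fev and 452 of Isl1. Acinar enzyme transcripts were not confined to the Rbpjl cells, since Clps was positive in 9 of 9 and Cpa1 in 7, among them the 3 Isl1 cells, and free RNA was not measured. Hes1, a Notch target that holds progenitors back from Neurog3, was positive in 1 of 9 against 18 of 38 cells, and Nkx6-1 in 9 of 9 against 9 of 38.

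At E12.5 there were 8 such cells, and more of the 9 factors were positive in them, a difference between days that was not tested. Myc was positive in 3 of 8 against 23 of 44 cells below 10 FPKM of Neurog3, Onecut1 in 3 of 8 against 16 of 44, and Nr5a2 in 2 of 8 against 18 of 44. Sox9 was positive in 5 of 8 against 33 of 44 and Rbpjl in 2 of 8 against 20 of 44. Hes1 was positive in 3 of 8 against 23 of 44. Nkx6-1 was positive in 0 of 8 against 6 of 44, so its high share among the Neurog3 cells of E11.5 did not recur. Ptf1a was positive in 2 of the 8, at 13.51 and 10.8 FPKM, and both cells were also positive for Rbpjl and Myc. The cell with the highest Neurog3 on that day, at 331 FPKM, had 46.6 FPKM of Bhlha15 and the other 8 factors listed at 0. With 9 and 8 cells from 1 set a day these are counts with wide intervals and no test: 0 of 9 allows a share of up to 33.6%.

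**Figure D3:**
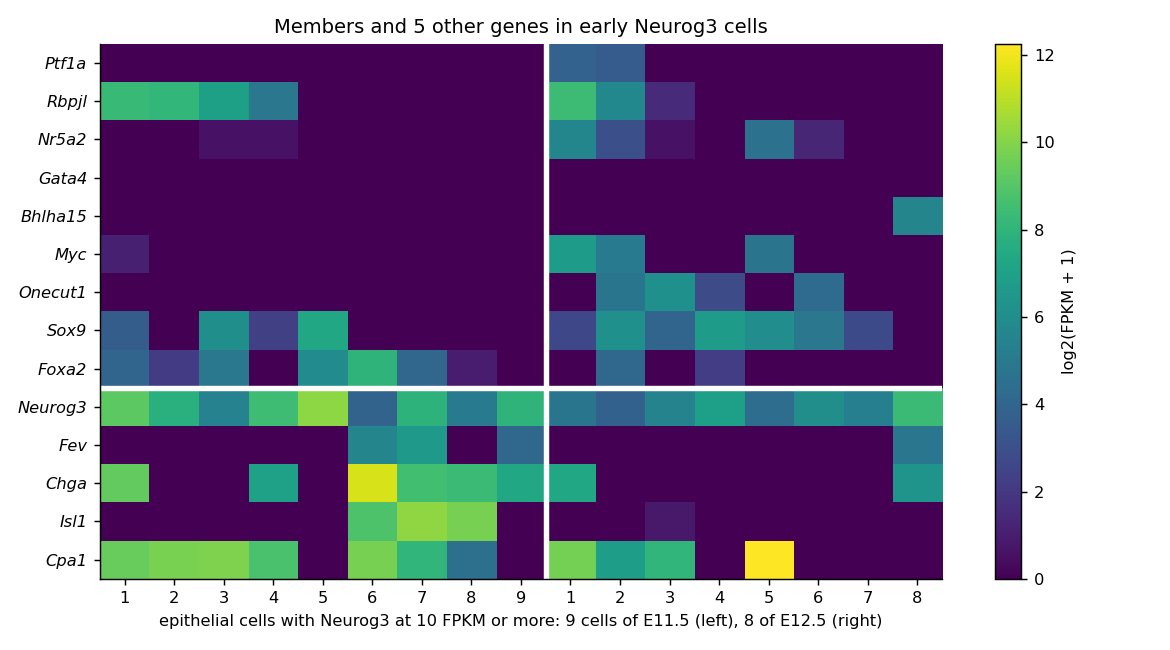
Values of log2(FPKM + 1) in the 17 early epithelial cells at 10 FPKM or more of Neurog3 (columns, E11.5 left of the white line and E12.5 right of it) for the 9 factors (upper rows) and Neurog3, Fev, Chga, Isl1 and Cpa1 (lower rows). Rbpjl filled the first 4 cells of E11.5, and the cells with Isl1 had none; Myc and Onecut1 at 10 FPKM or more appeared in E12.5 cells only.

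From E13.5 the cells were divided by Neurog3 and Fev into 190 Neurog3-only cells, 98 with both genes, 84 Fev-only cells and 123 with neither, of which 80 were hormone-high (any of Gcg, Ins1, Ins2, Sst, Ghrl and Ppy at 100 FPKM or more) and 43 were not. The rare factors were counted by state. Neurog3-only cells were 190 of all 495 later cells. All 9 Onecut1-positive cells were Neurog3-only, as were 4 of 5 Rbpjl-positive and 4 of 6 Gata4-positive cells. The remaining cells of Rbpjl and Gata4 were positive for both genes. Of the 9 Nr5a2-positive cells 5 were Neurog3-only, 3 Fev-only and 1 positive for both genes. The Nr5a2 share was 2.63% in Neurog3-only and 3.57% in Fev-only cells. Onecut1 was positive in 4.74% of Neurog3-only cells (2.19% to 8.80%) and in 0 of 98, 84, 43 and 80 cells of the other states. Ptf1a, Rbpjl, Nr5a2, Gata4 and Onecut1 did not reach the filter of the fit described next.

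Without that filter, over 27813 genes, Onecut1 passed in each comparison with Neurog3-only cells. These p-values are no separate support for the counts above. They rest on the same few positive cells, already seen to be all Neurog3-only, and the units of the other states lay at or near 0. Its set means in Neurog3-only cells were 0.386, 1.30 and 1.76 FPKM in run 1, and in run 2 they were 0.842, 7.82e-07 and 2.95, while it did not pass 0.185 FPKM in any unit of the other states. Since many of those units were listed at 0, no fold is given. It was lower in Fev-only cells (limma adjusted p = 0.00329, where 1.57% of all genes passed as lower), in cells with both genes (limma adjusted p = 0.0185, 0.191% lower) and in hormone-high cells (limma adjusted p = 0.00482, 2.15% lower). It was higher in Neurog3-only than in hormone-low cells (limma adjusted p = 0.0191, 1.83% higher). With each set left out in turn the Fev-only call held (limma adjusted p from 0.00187 to 0.0352). The hormone-high call was lost without E14.5 run 1 (limma adjusted p = 0.0510). The call in cells with both genes was lost without E13.5 run 2 (0.0871), E14.5 run 1 (0.165), E15.5 run 1 (0.104) or E15.5 run 2 (0.0709), and that against hormone-low cells without E13.5 run 2 (0.0520), E14.5 run 1 (0.135) or E15.5 run 1 (0.159). Ptf1a, Rbpjl, Nr5a2 and Gata4 did not pass in any of the 4 comparisons without the filter.

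Sox9, Foxa2, Bhlha15 and Myc were tested in 1 limma fit over 6 sets and 5 states, with set as a factor and 15542 genes. All comparisons with Neurog3-only cells below share those cells. Fev-only against Neurog3-only cells passed for 889 genes (5.72%) and for 0 of the 4 factors. At an unadjusted p below 0.05 these were 17% of all genes and 0 of the 4. The Sox9 mean over sets was 8.53 ± 4.995 FPKM (SD, n = 6) in Neurog3-only cells and 5.48 ± 3.51 in Fev-only cells (-0.66 ± 0.51 log2, SE, limma adjusted p = 0.573). Foxa2 had 21.7 ± 13.9 FPKM in Neurog3-only and 23.7 ± 18.6 in Fev-only cells (-0.04 ± 0.49, limma adjusted p = 0.997). Bhlha15 differed by 0.92 ± 0.63 (limma adjusted p = 0.499) and Myc by -0.04 ± 0.69 (limma adjusted p = 1).

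Cells with both genes against Neurog3-only cells passed for 152 genes (0.978%) and again for 0 of the 4 factors. At an unadjusted p below 0.05 these were 9.95% of all genes and 0 of the 4 factors. Sox9 differed by -0.69 ± 0.51 log2 (limma adjusted p = 0.713) and Myc by -1.41 ± 0.69 (limma adjusted p = 0.521), with 1 of 98 against 9 of 190 cells positive for Myc. Neurog3-only against hormone-low cells with neither gene, in 4 sets, passed for 794 genes (5.11%, with 4.39% higher and 0.714% lower) and for 0 of the 4 factors. At an unadjusted p below 0.05 these were 18.4% of all genes and 0 of the 4. In those 4 sets leukocyte markers summed to a mean of 7.42 FPKM in the 38 hormone-low cells and 5.28 in the 131 Neurog3-only cells. Foxa2 was 1.02 ± 0.56 log2 higher in Neurog3-only cells there without passing (limma adjusted p = 0.346). Over all 6 later sets 82 of 190 Neurog3-only and 8 of 43 hormone-low cells were Foxa2-positive (43.2% and 18.6%). The 2 later sets outside this comparison gave 59 of those Neurog3-only but only 5 of those hormone-low cells. Their whole-set Foxa2 means were 32.1 FPKM (E13.5 run 2) and 30.5 (E15.5 run 2), so these shares also reflect differences between sets. The change of the Fev-only difference along day passed for 0 of 15259 genes (895, 5.87%, at an unadjusted p below 0.05), and 5 of the factors were tested.

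Hormone-high against Neurog3-only cells passed for 1080 genes (6.95%, with 2.52% higher and 4.43% lower), and among the 4 factors Bhlha15 passed. Its set means in hormone-high cells from E13.5 to E15.5 were 17.7, 1.06 and 9.71 FPKM in run 1 and 6.04, 19.4 and 4.94 in run 2. In Neurog3-only cells of the same sets they were 0.182, 0.577 and 0.497 in run 1 and 0.790, 0.261 and 4.73 in run 2. Bhlha15 was higher in hormone-high cells in 6 of 6 sets, by 0.05 to 4.02 log2, and the fitted difference was 2.21 ± 0.63 log2 (limma adjusted p = 0.0326).

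The Bhlha15 result rested on few cells and sets. It was positive in 13 of 80 hormone-high cells (16.2%, 8.95% to 26.2%) and in 4 of 190 Neurog3-only cells (2.11%, 0.577% to 5.30%), and the 17.7 FPKM of E13.5 run 1 came from 1 of 5 cells, at 88.3 FPKM. Without E13.5 run 1 the difference was 1.85 (limma adjusted p = 0.123), without E13.5 run 2 it was 2.26 (0.0895), without E14.5 run 2 it was 1.85 (0.174) and without E15.5 run 1 it was 2.08 (0.0913). Over 20 alternatives it stayed positive, from 0.80 to 3.23 log2, with limma adjusted p from 0.00399 to 0.349, and 13 of them missed the threshold.

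Sox9 stood the other way without passing. Its mean over sets was 2.91 ± 1.44 FPKM (SD, n = 6) in hormone-high cells against 8.53 ± 4.995 in Neurog3-only cells, lower in 6 of 6 sets by -1.83 to -0.18 log2 (-1.18 ± 0.51, SE, limma adjusted p = 0.192). With all 8 sets in the fit it passed (-1.78, limma adjusted p = 0.0183). It was nonetheless positive in 12 of 80 hormone-high cells (15%) and 41 of 190 Neurog3-only cells (21.6%). Myc differed by -1.23 ± 0.69 (limma adjusted p = 0.358) and Foxa2 by -0.70 ± 0.49 (limma adjusted p = 0.469).

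**Figure D4:**
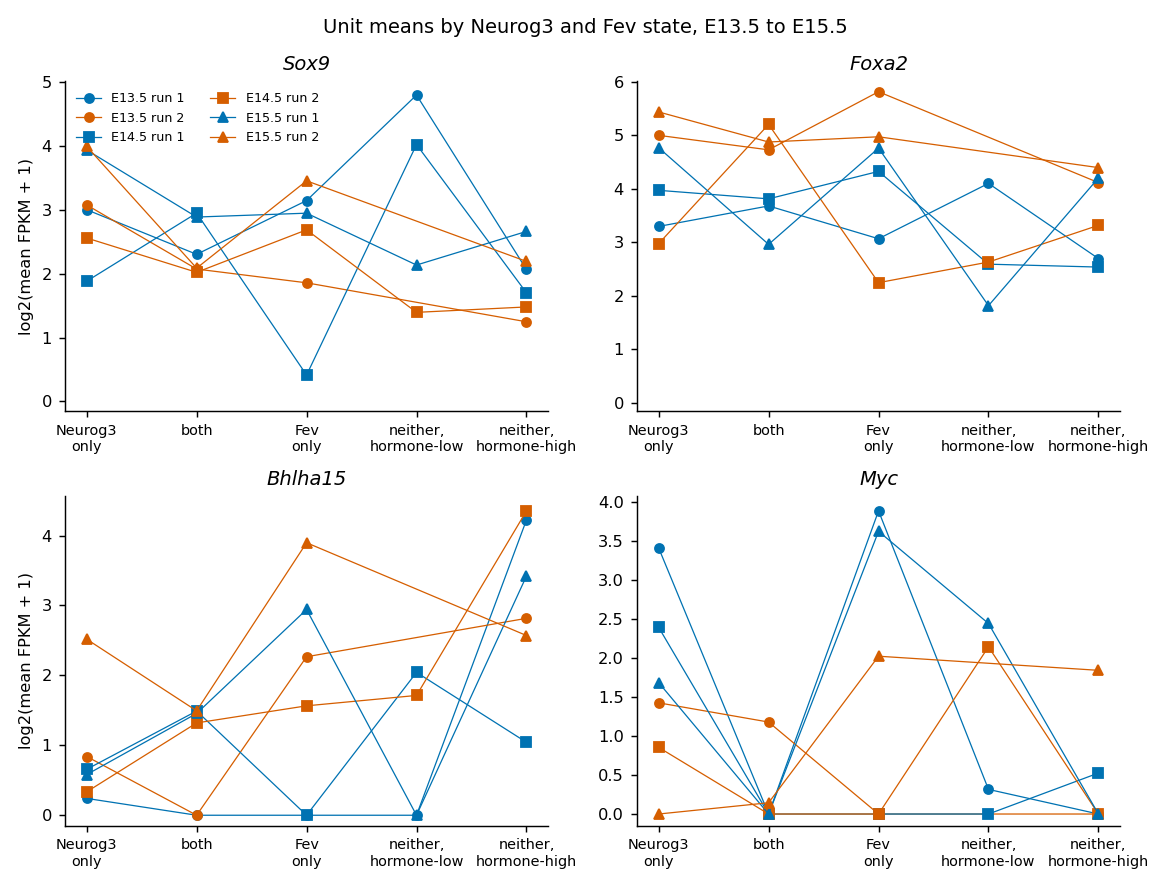
Set means as log2(mean FPKM + 1) of Sox9, Foxa2, Bhlha15 and Myc in 5 Neurog3 and Fev states. Each point is 1 unit of at least 5 cells, lines join the units of 1 cell set (2 sets lack the hormone-low unit), marker shape gives the day and color the run (blue 1, orange 2). Bhlha15 was higher in the hormone-high than in the Neurog3-only unit of 6 of 6 sets and Sox9 lower in 6 of 6.

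Sox9 and Foxa2 were the only 2 of the factors common enough late to be set against each other. Of the 88 Sox9-positive later cells 43 were Foxa2-positive (48.9%), against 145 of 407 without Sox9 (35.6%). By state the shares with and without Sox9 were 56.1% and 39.6% in Neurog3-only cells 58.3% and 26.5% in hormone-high cells and 50% and 11.4% in hormone-low cells (4 of 8 with Sox9), and the order turned in cells with both genes (41.7% and 44.2%) and in Fev-only cells (26.7% and 37.7%). Sox9-positive cells were deeper, with a median of 739388 fragments against 576132.

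The later Bhlha15 cells were set beside all 495 later cells. Of the 29 positive cells 27 (93.1%) were positive for Chga, a granule protein of endocrine cells, against 359 of all 495 (72.5%). Of the 29, 13 had Ins2 at 100 FPKM or more, 8 Ppy, 6 Ins1, 5 Gcg, 3 Sst and 1 Ghrl. For the acinar genes 1 was positive for Cpa1 and 2 for Cela1 (3.45% and 6.90%), against 24 and 35 of all 495 (4.85% and 7.07%). Ptf1a, Rbpjl, Nr5a2 and Gata4 were positive in 0 of the 29, but in only 0.202% to 1.82% of all 495. With any hormone gene at 100 FPKM or more, 20 of 166 cells were Bhlha15-positive (12.05%, 7.52% to 17.99%), and without one 9 of 329 (2.74%, 1.26% to 5.13%). The share was higher with a hormone gene in each of the 6 sets, from 1 of 21 against 2 of 57 at E13.5 run 2 to 7 of 42 against 1 of 40 at E15.5 run 2. By hormone, pooled over sets, the share was 13 of 64 in Ins2 cells (20.3%, 11.3% to 32.2%) against 16 of 431 without Ins2 (3.71%). It was 3 of 16 in Sst cells (18.8%, 4.05% to 45.6%), 6 of 34 in Ins1 cells (17.6%, 6.76% to 34.5%), 8 of 52 in Ppy cells (15.4%), 5 of 57 in Gcg cells (8.77%) and 1 of 36 in Ghrl cells (2.78%, 0.0703% to 14.53%). These intervals overlap, and the hormones were not tested against each other. The Ins2 cells with Bhlha15 came from E14.5 run 2 (3 of 11), E15.5 run 1 (5 of 18) and E15.5 run 2 (5 of 23), while E13.5 run 1 and E14.5 run 1 had 0 of 5 and 0 of 7 and E13.5 run 2 had 0 Ins2 cells. The median depth was 594727 fragments with Ins2 and 591985 without, and 647880 with any hormone gene and 563540 without.

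**Figure D5:**
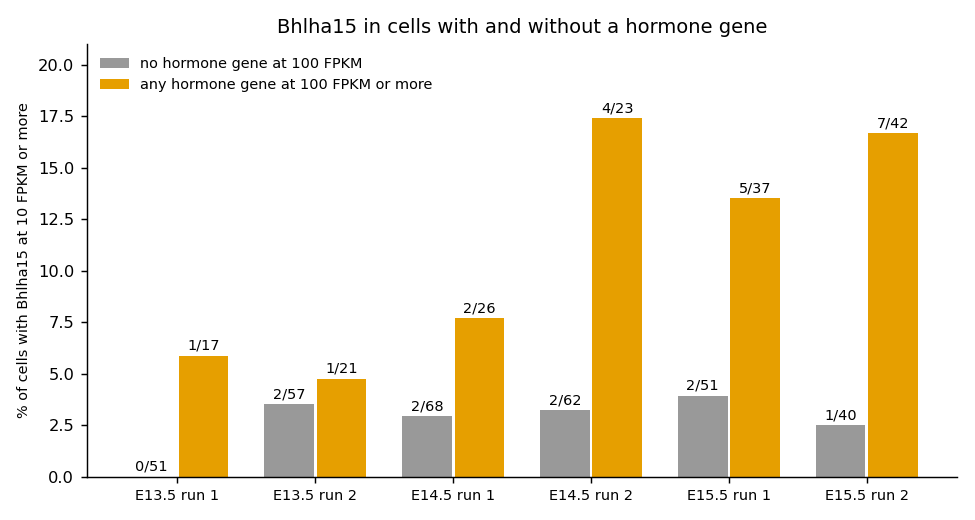
Percent of cells at 10 FPKM or more of Bhlha15 in each later cell set, among cells with no hormone gene at 100 FPKM (grey) and with any (orange), with counts above the bars and the axis from 0. The share was higher with a hormone gene in all 6 sets, from 4.76% against 3.51% at E13.5 run 2 to 16.7% against 2.50% at E15.5 run 2.

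Over all 658 cells, the genes most like each factor by Pearson's r of log2(FPKM + 1) among 11681 genes were as follows. Rbpjl was most like Vtn (0.76), Chst2 (0.75), P2rx1 (0.74), Cpa1 (0.68) and Gc (0.67). Vtn, Chst2 and P2rx1 also stood among the 5 most like Ptf1a (Cel first, 0.45) and Nr5a2 (Vtn first, 0.62). For Gata4 the first was Egfl6 (0.34) and for Myc it was Ldha (0.59), a glycolysis gene. Onecut1 and Sox9 were both most like Hes1 (0.65 and 0.54), with Adamts1 also among the 5 of each. Bhlha15 was most like Ins2 (0.28), with Wfs1, Ins1 and Iapp among its 5, and Foxa2 like Rph3al (0.40), with Nkx2-2, an endocrine factor, and Krt8. The cells come from 8 cell sets and from the early and late mixtures, and the values for Bhlha15 and Gata4 are low.

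Several partners and paralogs of the factors passed between states. Of 15 partners and paralogs 11 were tested between states. In Fev-only against Neurog3-only cells 0 rose and 2 fell (3.31% of all genes fell there), Sox4 (-2.51, limma adjusted p = 0.000790), a relative of Sox9 that acts with Neurog3, and Foxa3 (-2.29, limma adjusted p = 0.00438), with a list median of -1.13 against -0.04 for all genes. In hormone-high cells 5 fell (4.43% of all genes fell there), led by Mycl (-3.07), Foxa3 (-2.99) and Sox4 (-2.87), and the median of the 11 was -1.32 against -0.16 for all genes. Foxa3 (2.78) and Sox4 (2.32) were also the 2 that were higher in Neurog3-only than in hormone-low cells (4.39% of all genes). In cells with both genes 0 of 11 passed, where only 0.978% of all genes passed. Tcf3 (-1.57) and Foxa3 (-1.45) were the farthest from 0.

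Of 8 trunk or duct structural genes tested, 3 fell in Fev-only cells (Spp1 -5.53, Krt19 -2.84 and Cldn10 -2.30, beside 3.31% of all genes), 1 in cells with both genes (Spp1 -4.14, limma adjusted p = 0.0414, beside 0.54%) and 4 in hormone-high cells (beside 4.43%), among them Spp1 (-4.96), Krt19 (-4.14) and Cldn10 (-1.95). Krt19 (5.13) and Krt8 (1.04) were higher in Neurog3-only than in hormone-low cells, as were 4.39% of all genes. The list medians were -1.49 in Fev-only, -1.07 in cells with both genes, -1.72 in hormone-high cells and 1.003 against hormone-low cells, beside -0.04, -0.09, -0.16 and 0.35 for all genes. Of 11 other progenitor and trunk factors, Foxp1 (1.49) and Pdx1 (1.27) rose in Fev-only cells, as did 2.41% of all genes, and Nkx6-1 fell by 1.41 in hormone-high cells, where 4.43% of all genes fell. None of the 11 passed in the comparisons of cells with both genes or of hormone-low cells, where 0.978% and 5.11% of all genes passed.

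Acinar enzyme genes, the targets of the tip factors, numbered 13 and 6 of them were tested. Between states Clps alone passed, in 3 of the 4 comparisons, lower in Fev-only (-2.58, beside 3.31% of all genes) and hormone-high cells (-2.29, beside 4.43%) and higher in Neurog3-only than in hormone-low cells (4.31, beside 4.39%). Along day 0 of the 6 had a positive slope, with Cpa1 at -1.43 and Cela1 at -1.34, and their median slope was -1.06 against 0.02 for all genes. None of the 4 lists had a gene past the test along day over all cells or within Neurog3-only cells. As no gene at all passed there, this tells nothing about the lists. Cpa1 had means of 218 and 492 FPKM on the first 2 days and of 2.27 to 75.2 later, and Amy2a5, the amylase gene, was listed at a mean of 0 in all 8 sets.

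Several loci limit how the values can be read, since the kit does not mark strand. Onecut1 (chr9:74847983-74891784 in the files, mm10) shares exons with Gm20649 on the same strand, which had 10.4 and 12.9 FPKM early, and the authors' estimate could split reads between them. The Onecut1 value was itself 43.1% the coding transcript and 56.9% a processed transcript, over all kept cells. In the later cells, on which its comparison of states rests, the coding transcript was 35.9% (mean 0.154 FPKM) and the processed transcript 64.1%. Rbpjl (chr2:164389393-164415448) overlaps Matn4 on the opposite strand, which had 14.1 FPKM at E11.5 but 0.114 at E12.5. The value of Rbpjl itself was 62.8% the coding transcript. Ptf1a (chr2:19441508-19447501) overlaps Ptf1aos, which did not pass 0.0626 FPKM in any set. The first listed transcript of Nr5a2 made up 54.7% of the value in early cells and 2.41% in later cells, where the next one made up 97.6% of a mean of 0.777 FPKM.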

How the data were processed

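Single-cell SMART-seq libraries were analysed as deposited. The authors deposited FPKM values per gene and per transcript for each cell, which already divide fragments by length and depth, and per the submitters' processing notes TopHat2 2.0.13, Cufflinks 2.2.0 and the build mm10 were named. No source used here names the annotation. Column names gave each cell, with 0 columns unmapped. Fragments per cell (101675 to 1.99e+06 in kept cells) are the labels' total mass, and 63 cells were left out. A value listed at 0 can be a failed estimate. Without molecular identifiers, fragments are not independent molecules.

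A unit was the cells of 1 set, or of 1 state in 1 set with at least 5 cells, and log2(mean FPKM + 1) was tested with limma 3.58.1 in R 4.3.3 (intensity trend, two-sided, Benjamini-Hochberg over all genes with a mean of at least 1 FPKM, threshold 0.05). That scale understates changes of low genes. Scripts ran in Python 3.11.15 with pandas 2.3.3 and were tested on simulated data. Doublets were not called, since wells were to hold 1 cell.

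The 9 factors and the gene lists were chosen with earlier results of these data known. The list genes named are, for a comparison, at most 3 past the test with the largest difference, or at most the 2 largest where none passed, and the 5 genes most like each factor. Genes named for the early Neurog3 cells, the later Bhlha15 cells and the overlapping loci were chosen after their values were seen. Alternatives covered the pseudocount, the filter, scaling, depth, marked cells, state thresholds, runs and each left-out set.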

Additional observations from a re-analysis of the deposited data

How the results depend on the processing

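Among the values given for the 9 factors, Bhlha15 in hormone-high cells was the call that alternatives ended most often (13 of 20), at an unfiltered adjusted p of 0.0657, and at 0.114 with a pseudocount of 0.1 FPKM (limma). Counts of genes past the test moved as follows. Along day the slope gave 1 gene with a pseudocount of 0.1 FPKM. The step gave 1166 and, in epithelial cells, 385, but it was placed where the values were seen to change. Those counts for the step are therefore no test of a change along day. Fev-only cells gave 1397 with means of logs, 151 at a state threshold of 50 FPKM, 551 with all 8 sets, and 98 and 125 in run 1 and run 2 alone. Cells with both genes gave 88 (pseudocount), 93 (no filter), 415 (means of logs), 305 (cells rescaled), 14 (8 sets), 4 and 10 (runs). Neurog3-only against hormone-low cells gave 440 (50 FPKM), 124 (8 sets), 331 (at least 10 cells), 100 and 46 (runs). Hormone-high cells gave 2074 (means of logs), 481 (50 FPKM), 140 and 169 (runs). Within Neurog3-only cells the slope gave 1 on E13.5 to E15.5 and 1 at 50 FPKM. With each set left out, the counts ran from 0 to 1 along day, 550 to 764 for Fev-only cells, 23 to 111 for cells with both genes, 420 to 791 against hormone-low cells, 629 to 974 for hormone-high cells and 0 to 2 within Neurog3-only cells. The cause was not tested, except that runs, thresholds and left-out sets leave fewer samples.

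The remaining changes of sign concern differences of the factors that passed in no setting where the sign turned. The Sox9 slope was 0.13 on E13.5 to E15.5 alone, and 0.46 within Neurog3-only cells. For Fev-only against Neurog3-only cells, Myc was 0.067 with units centred, 0.37 with 8 sets and 0.0070 in run 1, Foxa2 was 0.062 (centred), 0.022 (without marked cells), 0.045 (5 FPKM), 0.0065 (8 sets) and 0.039 (run 1), and Bhlha15 was -0.16 (50 FPKM). For cells with both genes, Bhlha15 was -0.12 (pseudocount), -0.55 (50 FPKM), -0.050 (8 sets), -0.29 (run 2) and -0.57 (without hormone cells), and Foxa2 was 0.11 (centred), 0.086 (without marked cells), 0.32 (50 FPKM), 0.019 (8 sets) and 0.47 (run 2). Against hormone-low cells, Bhlha15 was 0.15 (pseudocount) and 0.073 (5 FPKM), Myc was -0.033 (means of logs), -0.9981 (8 sets) and -1.37 (at least 10 cells), and Sox9 was 0.019 (pseudocount), 0.16 (means of logs), 0.043 (at least 300000 fragments), 0.00085 (without marked cells), 0.082 (50 FPKM), 0.057 (8 sets), 1.40 (at least 10 cells) and 1.61 (run 2). With E12.5 run 1 and E13.5 run 1 (low in GC-rich transcripts) left out, these were -0.28 for Myc, 0.51 for Sox9 and, along day within Neurog3-only cells, 0.23 for Myc. Along day within Neurog3-only cells, Nr5a2 was -0.11 and Onecut1 -0.10 (means of logs), Onecut1 -0.015 (5 stage means), and Myc 0.049 (rescaled), 0.19 (at least 300000 fragments), 0.074 (epithelial) and 0.17 (50 FPKM).

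With each set left out, Fev-only differences ran from -0.22 to 0.093 for Foxa2 and -0.45 to 0.43 for Myc, and those of cells with both genes from -0.080 to 0.32 for Bhlha15 and -0.48 to 0.32 for Foxa2. Against hormone-low cells they ran from -0.65 to 0.19 for Bhlha15, -0.28 to 1.05 for Myc and -0.63 to 0.59 for Sox9, and along day within Neurog3-only cells from -0.90 to 0.18 for Myc, -0.20 to 0.37 for Nr5a2 and -0.38 to 0.41 for Onecut1. Centring units moved the median of all genes by 0.11 for Fev-only cells, 0.14 for cells with both genes, -0.41 against hormone-low cells and 0.23 for hormone-high cells, and rescaling moved it by -0.24 against hormone-low cells. No paired analysis was possible because the replicate numbers in the labels are well numbers, which only name cells. The comparisons of states were instead made within cell sets, with set as a term of the fit. Depth limits shares of the low factors, since cells had as few as 101675 fragments and a factor listed at 0 in a cell may be below detection. The step, the epithelial fits, the epithelial Neurog3-only slope and the unfiltered Onecut1 fits with a set left out were added after seeing the data.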
